A study of Mus musculus with 5 samples.

Results

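Pressure overload of the mouse heart on a control diet was described here from 2 of the 5 samples of a study of H3K23Pr, the propionylation of lysine 23 on histone H3, by chromatin immunoprecipitation and sequencing (ChIP-seq). The library of hearts after TAC (transverse aortic constriction, in which a ligature narrows the aortic arch and the left ventricle pumps against a higher pressure) was set against the library of hearts after a sham operation. Both were chosen by their sample titles, and all 30965 regions of the deposited table were used. In the group TAC, control diet and in the group sham, control diet, the hearts came from male C57Bl/6J mice aged 12 weeks. Both groups ate a defined diet containing BCAA (the amino acids with branched side chains: leucine, isoleucine, valine), begun 4 days before surgery and kept up to collection 2 weeks after it. The groups TAC, BCAA-free diet and sham, BCAA-free diet had the same timing without BCAA, and the pooled input library was not analysed here. No genetic change is named for any group. The 4 ChIP libraries were each made from 3 hearts pooled, 1 library to a group, so no value below has a replicate check and no p-value or SD is given. The treatment field of 3 samples, the control diet TAC sample among them, contradicts their titles, which match the design text and were followed. The BCAA-free pair shares no library with the control diet pair and is given beside it. No difference between the diets was tested.

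Histone propionylation adds a propionyl group, donated by propionyl-CoA, to lysine residues of histone tails. Propionyl-CoA arises from the breakdown of isoleucine, valine and odd-chain fatty acids, so the mark links chromatin to the metabolism of the cell. Like acetylation, it is found at the promoters of active genes and at enhancers. A heart under pressure overload thickens, its cardiomyocytes switch on genes of the fetal heart such as the natriuretic peptides and skeletal actin, and its fibroblasts lay down matrix.

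H3K23Pr signal was higher in the TAC library than in the sham library over most regions, and the median excess was largest, of the 7 classes of region, at CpG-island promoters. The median signal over regions, an average coverage per region in the authors' units, was 10.2 in TAC and 9.28 in sham. The difference of a region is given as log2((TAC + 1)/(sham + 1)), called the log2 ratio below, and its median was 0.16, with quartiles of -0.06 and 0.33. On this scale 1781 regions (5.75%) were at least 1.5-fold higher in TAC and 678 (2.19%) at least 1.5-fold lower, so 72.4% of the regions past the threshold were higher. After centring on the median of all regions the counts were 741 higher (2.39%) and 1544 lower (4.99%), and the share of higher regions was 32.4%. With both libraries scaled to equal sums over all regions that share was 36.8%. No source used here states how the libraries were scaled, so a general excess of the mark in TAC and a difference in scale cannot be told apart. The approximate tags behind the regions summed to 18.9 in TAC and 16.9 in sham, in units of 1e6, and the median was 268 tags per region in TAC and 245 in sham. In the BCAA-free pair the median log2 ratio was -0.03, with 2495 regions higher (8.06%) and 2859 lower (9.23%). Because whole hearts were pooled, a change in the mark per cell and a change in the number of cells that carry it cannot be told apart.

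The marker genes of cardiac pressure overload had higher signal in TAC, at the gene starts and at flanking regions. Folds of named regions are plain ratios of average signal with an exact 95% interval computed from approximate tags, which covers counting error only. The region over Nppb, the gene of B-type natriuretic peptide, a hormone that the loaded ventricle secretes, lies at chr4:147984200-147987999 on mm10, overlaps the gene and contains 1 promoter. Its average signal was 9.61 in TAC and 3.51 in sham on the control diet, a fold of 2.73 (2.01 to 3.72). The region over the start of Nppa, the gene of atrial natriuretic peptide, at chr4:147997200-148001999, had 9.08 in TAC and 3.43 in sham, a fold of 2.65 (2.03 to 3.55). This region is also assigned to Nppb and to the neighbouring chloride transporter gene Clcn6. Both regions were called in the TAC library and not in the sham library, and both lay in the lowest of 5 equal bins of mean signal, which ends at 6.75. In the BCAA-free pair the Nppb region had 7.24 in TAC and 3.75 in sham, and the Nppa region had 7.75 in TAC and 2.62 in sham, so TAC was the higher library at both genes on either diet.

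Regions beside the natriuretic peptide genes were also higher in TAC. Of 12 regions within 100 kb of the Nppb start, 12 had a log2 ratio above 0, as had 68.7% of all regions. At least 1.5-fold higher were 4 of them, against 5.75% of all regions, with 0 at least 1.5-fold lower, against 2.19%. These 4 were the contiguous regions from upstream of Nppb to downstream of Nppa. The region upstream of Nppb, at chr4:147978600-147981199, had 7.09 in TAC and 4.16 in sham, a fold of 1.71 (1.18 to 2.49). The region downstream of Nppa, at chr4:148002800-148005199, had 7.15 in TAC and 4.29 in sham, a fold of 1.67 (1.15 to 2.47), and was called in neither library. A distal region 20.2 kb before the Nppb start, with no assigned gene, had 13.3 in TAC and 9.58 in sham, a fold of 1.38 (1.22 to 1.56). The outer regions, which serve Mfn2, Plod1, Agtrap and Draxin among others, had log2 ratios between 0.17 and 0.37. Relative to the median of regions of the same class, signal and length (the matched value) these outer regions lay between -0.07 and 0.25, and 2 of the 12, over Nppb and at the Nppa start, were past 1.5-fold, against 3.08% of all regions. In the BCAA-free pair 6 of the 12 regions were at least 1.5-fold higher, and the median over the 12 was 0.36 on the control diet and 0.33 on the BCAA-free diet.

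**Figure D1:**
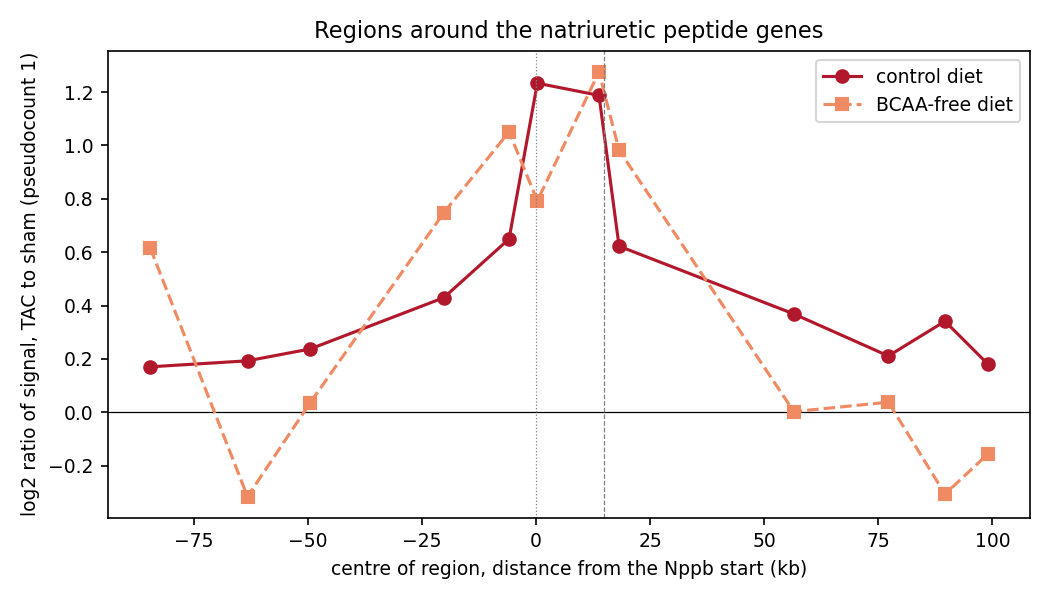
Log2 ratio of average signal, TAC to sham, at the 12 regions within 100 kb of the Nppb start, by the distance of the region's centre from that start in kb. The dotted line marks the Nppb start and the dashed line the Nppa start. Points are single pooled libraries compared in pairs, without error bars. On the control diet the ratio reaches 1.23 over Nppb and 1.19 at the Nppa start and lies between 0.17 and 0.65 at the other 10 regions.

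Acta1 encodes skeletal muscle actin, which the fetal ventricle expresses and the loaded adult ventricle expresses again. Its region at chr8:123891600-123896799, shared with Nup133 and LOC101056072, had 6.74 in TAC and 3.41 in sham, a fold of 1.98 (1.5 to 2.62). It was called in the TAC library and not in the sham library. Like Nppa and Nppb, it lay in the lowest bin of mean signal. Within 100 kb of the Acta1 start all 6 regions had log2 ratios above 0, as had 68.7% of all regions. Upwards past 1.5-fold were 4 of the 6, against 5.75% of all regions, and 1 of the 6 in the BCAA-free pair. Besides Acta1 itself the 4 were a distal region 22.1 kb from the start at 1.78-fold (1.21 to 2.63), the Rab4a region at 1.59-fold (1.34 to 1.90) and a region of Nup133 and Abcb10 at 1.68-fold (1.42 to 1.99). By the matched value 1 of the 6, the distal region, passed 1.5-fold. The matched value was 0.53 at the Acta1 region, short of 1.5-fold, and -0.04 at the region of Abcb10 alone. The BCAA-free pair had 5.10 in TAC and 3.42 in sham at the Acta1 region, a fold of 1.49 (1.11 to 2.01).

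Tnc encodes tenascin C, a matrix glycoprotein that adult tissue makes after injury. The region over its start, at chr4:64045400-64047799, had 11.1 in TAC and 4.03 in sham, a fold of 2.75 (1.94 to 4.02). It was called in the TAC library and not in the sham library. A distal region 30.4 kb upstream had 10.3 in TAC and 7.17 in sham, a fold of 1.43 (1.06 to 1.94). On the BCAA-free diet the start region had 6.35 in TAC and 5.47 in sham, a fold of 1.16 (0.80 to 1.66), so TAC stood apart from sham at this gene on the control diet and within counting error on the BCAA-free diet.

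Nr4a2, an orphan nuclear receptor and immediate early gene, had 3 assigned regions and the strongest signal of the 5 markers. The region at chr2:57111400-57118799, within the gene, had 34.4 in TAC and 16.7 in sham, a fold of 2.06 (1.86 to 2.28). The promoter region at chr2:57119800-57125199 had 18.7 in TAC and 12.4 in sham, a fold of 1.51 (1.30 to 1.75). The last region, beyond the end of the gene and 20.4 kb from its start at chr2:57101600-57105599, had 9.63 in TAC and 6.07 in sham, a fold of 1.59 (1.24 to 2.05). TAC was thus the higher library at all 3 assigned regions. In the BCAA-free pair the log2 ratios of the same regions were -0.01, -0.01 and -0.22, and the region within the gene had 26.8 in TAC and 26.9 in sham.

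**Figure D2:**
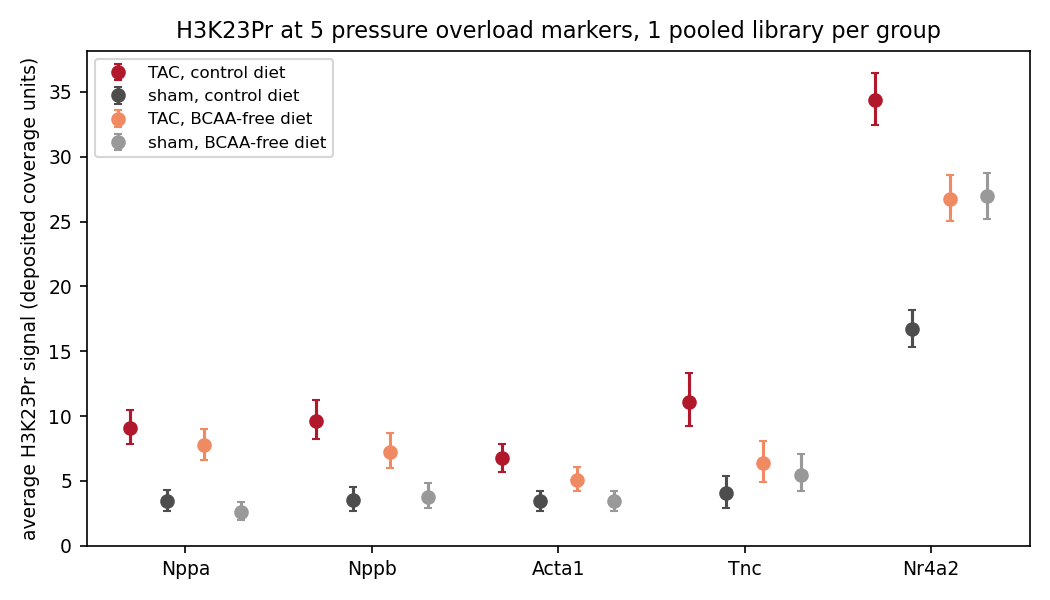
Average H3K23Pr signal at the region that represents each of the 5 markers, in the authors' coverage units, for TAC and sham on the control diet and TAC and sham on the BCAA-free diet. Points are single pooled libraries and bars are exact 95% counting intervals. On the control diet the TAC intervals lie above the sham intervals at all 5 genes, and on the BCAA-free diet the intervals overlap at Acta1, Tnc and Nr4a2. At Acta1 that overlap is slight, and the interval of the fold, 1.11 to 2.01, excludes no difference.

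The promoter sequences of the 5 markers are shown because a region with higher signal in TAC lies over each of them. Each is the RefSeq sequence on GRCm38.p6, written 5′ to 3′ on the gene's strand from 250 bases before the start to 50 after it, with matched motifs in capitals. The motifs searched on both strands were the CArG box bound by SRF, the MCAT element CATTCC, the GATA site GATAA, the TATA box TATAAA, the AP-1 site TGANTCA, the cyclic AMP response element TGACGTCA and the MEF2 site. Where matches overlap, their capitals join.
Nppa, chr4:148000472-148000771, plus strand: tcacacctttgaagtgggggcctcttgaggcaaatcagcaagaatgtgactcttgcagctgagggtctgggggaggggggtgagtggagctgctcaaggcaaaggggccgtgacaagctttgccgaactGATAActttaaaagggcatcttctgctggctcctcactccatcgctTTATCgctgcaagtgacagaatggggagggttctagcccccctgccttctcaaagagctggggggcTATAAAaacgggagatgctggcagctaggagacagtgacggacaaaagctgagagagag
Nppb, chr4:147985650-147985949, plus strand: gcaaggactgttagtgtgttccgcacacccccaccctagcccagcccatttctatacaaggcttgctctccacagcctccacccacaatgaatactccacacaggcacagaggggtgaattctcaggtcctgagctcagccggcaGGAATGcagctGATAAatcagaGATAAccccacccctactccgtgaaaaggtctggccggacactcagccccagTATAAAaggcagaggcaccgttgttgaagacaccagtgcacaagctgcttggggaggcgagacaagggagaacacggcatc
Acta1, chr8:123894726-123895025, minus strand: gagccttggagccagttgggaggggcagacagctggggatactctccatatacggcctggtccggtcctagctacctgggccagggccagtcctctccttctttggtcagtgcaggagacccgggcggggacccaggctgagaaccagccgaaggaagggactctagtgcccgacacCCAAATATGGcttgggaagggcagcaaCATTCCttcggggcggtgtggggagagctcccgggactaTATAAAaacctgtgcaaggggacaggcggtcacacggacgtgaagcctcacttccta
Tnc, chr4:64046966-64047265, minus strand: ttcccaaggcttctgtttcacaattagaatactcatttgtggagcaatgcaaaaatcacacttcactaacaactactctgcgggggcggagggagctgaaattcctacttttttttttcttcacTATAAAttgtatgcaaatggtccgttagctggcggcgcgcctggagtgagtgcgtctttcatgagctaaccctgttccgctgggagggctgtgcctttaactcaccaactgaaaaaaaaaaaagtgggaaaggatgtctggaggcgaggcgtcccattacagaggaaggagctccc
Nr4a2, chr2:57123954-57124253, minus strand: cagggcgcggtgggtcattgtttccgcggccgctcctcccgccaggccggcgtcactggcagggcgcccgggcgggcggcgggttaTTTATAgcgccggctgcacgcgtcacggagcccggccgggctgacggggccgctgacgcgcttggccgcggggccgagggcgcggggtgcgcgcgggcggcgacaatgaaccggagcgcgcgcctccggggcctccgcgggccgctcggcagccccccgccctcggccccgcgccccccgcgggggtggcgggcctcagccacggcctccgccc
The 2 natriuretic peptide promoters each held 2 GATA matches and a TATA match, and the Nppb promoter also held an MCAT match 105 bases before the start. The Acta1 promoter held a CArG box 73 bases before the start, an MCAT match and a TATA match. Of 32851 mouse promoters of the same length, 25.4% held a GATA match, 13.6% a TATA match, 14.7% an MCAT match and 1.63% a CArG box. The Tnc and Nr4a2 promoters held a TATA match each and none of the other motifs, and Nr4a2 stood apart in base composition, with 81.7% G and C and 52 CG dinucleotides, against 47.3% and 10 at Tnc. The table gives 2 starts for Tnc, and the most upstream was used. A motif match is a description of letters and no measurement of binding.

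The same motifs were counted over 6643 genes with a promoter in RefSeq and a promoter region no more than 2000 bp from their start. The median log2 ratio was 0.33 over the 90 genes whose promoter held a CArG box and 0.30 over all 6643, and 8.89% and 5.61% of them were at least 1.5-fold higher. Genes with a TATA match had a median of 0.27 and 8.10% at least 1.5-fold higher, and genes with an AP-1 match had 0.28 and 5.39%. Across 4 bins of genes by the number of CG dinucleotides in the promoter, from few to many, the median was 0.23, 0.30, 0.33 and 0.33. The printed promoters of Nppa, Nppb, Acta1 and Tnc held 6, 7, 12 and 10, below the 13 at which the lowest bin ends.

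Region classes differed in how far TAC lay above sham. The 6709 CpG-island regions with 1 promoter had a median log2 ratio of 0.26, with median signals of 16.9 in TAC and 13.9 in sham. The 3004 CpG-island regions with several promoters had 0.28, and the 927 CpG islands outside promoters had 0.25. Regions with a promoter and no CpG island had 0.12 over 3598 regions. Intragenic regions without either had 0.0050 over 8597 regions, with median signals of 7.69 in TAC and 7.49 in sham, gene-flanking regions had 0.10 and distal regions without an assigned gene 0.06. The median excess in TAC was thus largest in the classes with CpG islands, inside and outside promoters, and was near 0 in gene bodies. At all 9713 CpG-island promoters together the median was 0.27, with 423 regions higher and 3 lower, whereas the 16727 regions with neither feature had 0.04, with 1086 higher and 613 lower. After centring, the 3 classes with CpG islands were at 0.11, 0.12 and 0.09, and the other 4 classes lay below 0, from -0.04 at promoters without a CpG island to -0.15 in intragenic regions. In the BCAA-free pair the median was -0.05 at CpG-island promoters and 0.02 at regions with neither, of which intragenic regions had 0.08, gene-flanking regions -0.03 and distal regions -0.06.

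**Figure D3:**
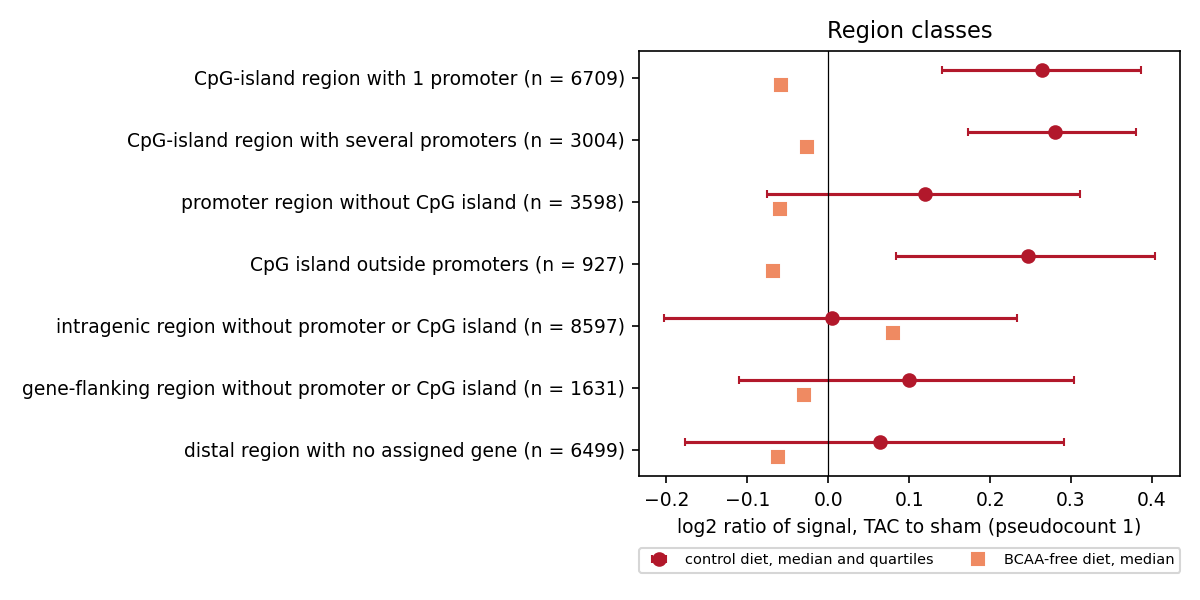
Median log2 ratio of average signal, TAC to sham, in 7 classes of region, with quartiles over regions as bars for the control diet, and the median for the BCAA-free diet as squares. On the control diet the 3 CpG-island classes lie between 0.25 and 0.28 and intragenic regions at 0.0050, while every BCAA-free median lies between -0.07 and 0.08.

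In each of the 7 classes more regions were called in TAC and not in sham than the reverse. The peak calls listed 25729 regions in TAC and 23755 in sham, of which 21512 were shared. In TAC and not in sham 4217 were called (13.6% of all regions), and in sham and not in TAC 2243 (7.24%). Among CpG-island regions with 1 promoter both shares were below those of all regions, at 6.93% in TAC and not in sham and 0.626% in sham and not in TAC. Among intragenic regions both were above, at 16.4% and 12.4%. Regions called in TAC and not in sham had a median log2 ratio of 0.42, and regions called in sham and not in TAC had -0.36. These calls and the signal come from the same reads, so they do not check each other.

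Signal strength and region length both moved with the ratio. From the weakest to the strongest of 5 equal bins of mean signal, the median log2 ratio over all regions was -0.07, 0.06, 0.12, 0.20 and 0.30. Within intragenic regions it was -0.11, 0.01, 0.07, 0.12 and 0.17. Within CpG-island regions with 1 promoter it was 0.25, 0.21, 0.18, 0.22 and 0.32, so the class stood above intragenic regions in every bin and most clearly in the weakest. With the trend on mean signal removed, the median at CpG-island promoters exceeded that at regions with neither feature by 0.06, against 0.23 without that step. From short to long regions, in 3 bins divided at 3999 and 8199 bp, the median was 0.22, 0.16 and 0.12. Short regions also held most of the large differences in both directions: 13%, 3.50% and 1.04% were at least 1.5-fold higher, and 4.13%, 1.92% and 0.61% at least 1.5-fold lower. The matched value was computed with these bins as the log2 ratio minus the median of regions of the same class, signal bin and length bin. By the matched value 953 regions (3.08%) passed 1.5-fold upwards and 798 (2.58%) downwards, among them 24 and 22 of the CpG-island promoters. The matched value was 1.16 at Nppb, 1.21 at the Nppa start, 0.53 at Acta1, 1.14 at Tnc and 0.65 at the Nr4a2 region within the gene. The signal bins use the mean of the same TAC and sham values. The matched values of the markers are thus a description and no separate support.

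The contrast between promoters and gene bodies was present within single genes, in ratios not matched on signal. Intragenic regions were weaker, with a median sham signal of 7.49 against 14.5 at CpG-island promoters, and the ratio rose with signal. The part of signal strength in this contrast was not tested. For 1762 genes with a region at the promoter, no more than 2000 bp from the start, and intragenic regions without promoter or CpG island, the median log2 ratio was 0.26 at the promoter region and 0.02 over the intragenic regions. The intragenic value was the lower one in 1321 of the genes (75%), with a median difference of -0.22. Without BCAA it was lower in 604 (34.3%), with a median difference of 0.15, so there gene bodies lay above promoters in TAC against sham. For the 1423 genes with a CpG-island promoter the share with the lower intragenic value was 77.9% on the control diet and 32.4% on the BCAA-free diet, and for the 339 others it was 62.8% and 42.2%.

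**Figure D4:**
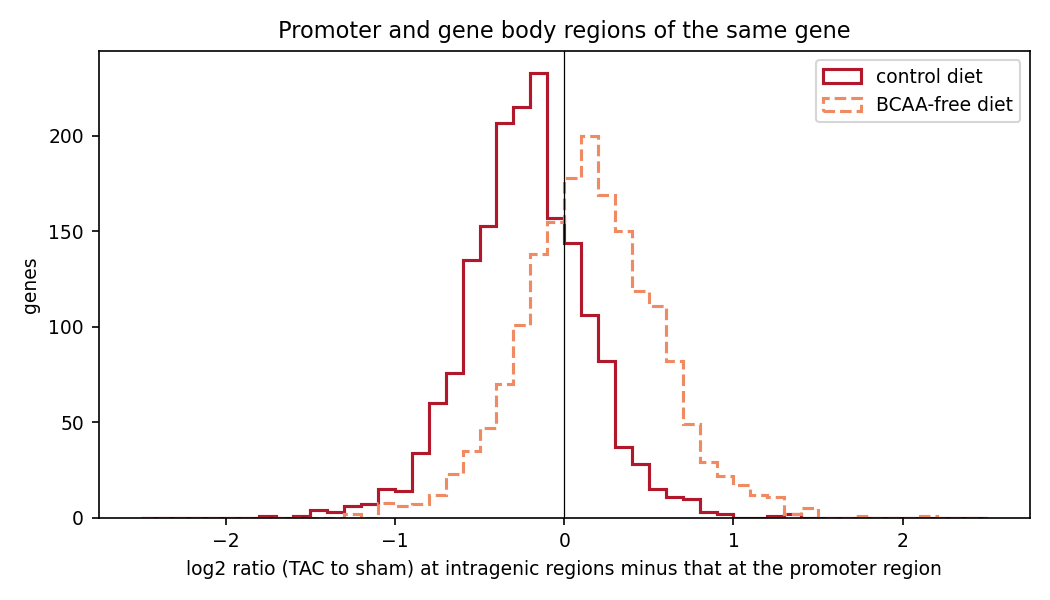
Number of genes by the log2 ratio (TAC to sham) at intragenic regions minus that at the promoter region of the same gene, for 1762 genes, as outlines for the control diet and the BCAA-free diet. The control diet outline has its median at -0.22 and the BCAA-free outline at 0.15.

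Among regions with an assigned gene, the median was lower farther from the nearest gene start. Distal regions with no assigned gene are not in the distance bins below and had a median of 0.06. Regions within 1 kb of a start had a median log2 ratio of 0.31, those at 1 to 5 kb 0.22, at 5 to 20 kb 0.12, at 20 to 100 kb 0.03 and beyond 100 kb 0.02. By the matched value the medians lay between -0.01 and 0.01 at every distance. The BCAA-free medians were -0.08, -0.04, 0.02, 0.07 and 0.06. Chromosomes differed little: their medians, leaving out Y with 5 regions, lay between 0.10 on chromosome 3 and 0.20 on chromosome 7, and the matched medians between -0.03 and 0.02.

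For gene groups, each of 18161 genes was represented by its assigned region of highest mean signal in the 2 libraries, and these regions numbered 11936 because neighbours share them. Over all genes the median log2 ratio was 0.26, 16026 genes were above 0 (88.2%), 804 were at least 1.5-fold higher (4.43%) and 89 at least 1.5-fold lower (0.49%). In the BCAA-free pair the median was -0.04, with 504 genes higher (2.78%) and 668 lower (3.68%). The lists below hold 886 symbols in 40 lists, 830 of them with a region. Counts above 0 are of ratios as deposited. Centring on all regions subtracts 0.16 from every ratio, which puts the medians of the intercalated disc, cardiac transcription factor, BCAA catabolism, smooth muscle, proteoglycan, fibroblast and collagen lists below 0.

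Markers of cell types were measured on the same scale. The label names heart, and all 20 cardiomyocyte markers had a region. Their signals summed to 294.6 in TAC and 246.7 in sham, with a median log2 ratio of 0.26, none past 1.5-fold. By the matched value 16 of the 20 lay above regions of their own kind, against 10 of 20 fibroblast, 11 of 20 endothelial and 5 of 16 smooth muscle and pericyte markers, and 50.7% of all genes. The matched medians were 0.10 for cardiomyocyte, 0.11 for endothelial, -0.05 for fibroblast and -0.11 for smooth muscle and pericyte markers. The excess was thus not particular to cardiomyocyte markers, and by peak signal their matched median was 0.10, against 0.12 for endothelial markers. On the BCAA-free diet the cardiomyocyte markers summed to 354.5 in TAC and 254.0 in sham, with a median of 0.53. The 20 fibroblast markers summed to 282.8 in TAC and 262.0 in sham, with a median of 0.08 and 1 gene, Dcn, at least 1.5-fold lower. Their other extremes were Gpc3 at 0.58, Meox1 at 0.54 and Lum at -0.25. Without BCAA they summed to 238.6 in TAC and 343.8 in sham. The 20 endothelial markers summed to 490.8 in TAC and 406.5 in sham, with a median of 0.28 and Cldn5, a tight junction protein, at 1.57-fold (1.45 to 1.71). The 16 smooth muscle and pericyte markers summed to 260.7 in TAC and 232.0 in sham, with a median of 0.10 and Cnn1 past 1.5-fold. Macrophage and immune markers summed to 257.8 in TAC and 221.0 in sham over 20 of 22 symbols, with a median of 0.20. Of the markers of other tissues, 5 of 16 skeletal muscle and erythroid symbols, 12 of 16 adipocyte and neural symbols and 9 of 20 of other organs had a region, with medians of 0.18, 0.19 and 0.21. Among these markers Adipoq was at least 1.5-fold higher and Syt1 at least 1.5-fold lower. The part of cell composition in the differences at cardiac, fibroblast and matrix genes was not tested.

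The natriuretic and fetal programme list had a median of 0.35 over 24 genes, and 21 of them were above 0, as were 88.2% of all genes. By the matched value 16 of the 24 lay above regions of their own kind, against 50.7% of all genes. The list's 3 genes at least 1.5-fold higher were Nppb, Nppa and Acta1, and none was lower. Pln, which encodes the inhibitor of the calcium pump, was the lowest member, at 9.71 in TAC and 12.2 in sham, a log2 ratio of -0.30. On the BCAA-free diet the list's median was 0.27, and Pln had 18.01 in TAC and 12.6 in sham, so at Pln TAC was the lower library on the control diet and the higher one without BCAA. Within the wider cardiomyocyte programme the shifts were small. The 28 sarcomere and Z-disc genes had a median of 0.20, the 20 intercalated disc genes 0.15 and the 12 mechanical stress genes 0.22, with none past 1.5-fold. Those medians were 0.38, 0.38 and 0.48 on the BCAA-free diet. The 22 sodium and potassium channel genes had 0.27. The 17 calcium release genes had 0.25, and Trdn, which encodes triadin of the release complex, was 1.86-fold lower (1.57 to 2.22), at 4.96 in TAC and 9.24 in sham in a region within the gene. The 23 cardiac transcription factors had 0.12, and the lowest were Gata4 at -0.14 and Tbx20 at -0.12, below the shift of all genes.

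Immediate early genes, which respond to a stimulus within minutes without new protein synthesis, lay high as a group on the control diet. All 18 genes of the Nr4a and Egr list were above 0, against 88.2% of all genes. Their median was 0.36, 13 of 18 lay above regions of their own kind, and 3 were at least 1.5-fold higher. Besides Nr4a2 these were Egr3, a zinc finger factor, at 29.2 in TAC and 18.3 in sham, 1.60-fold (1.46 to 1.75), and Nr4a3, at 36.4 in TAC and 22.99 in sham, 1.58-fold (1.47 to 1.70). The smallest ratios were those of Klf6, at 0.13, and Klf2, at 0.06, both below 0 after centring. The 13 genes of the AP-1 family, subunits of the Fos and Jun dimers and their relatives, had a median of 0.32, and 12 of 13, Atf3 of the list before among them, also lay above regions of their own kind by the matched value. Over all genes 9199 of 18161 did. Junb was the 1 member past 1.5-fold, at 63.5 in TAC and 41.8 in sham, 1.52-fold (1.47 to 1.57). The matched medians of the Nr4a and Egr list and the AP-1 list were 0.11 and 0.10, and by peak signal both were 0.04. The medians of these lists were -0.12 and -0.08 on the BCAA-free diet.

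By average signal the medians of matrix genes differed by kind. The matricellular and injury list, proteins that signal from the matrix without building it, had a median of 0.28, against 0.26 over all genes. Of its 18 genes 3 were past 1.5-fold. These were Tnc, then Thbs4 (thrombospondin 4) at 7.35 in TAC and 3.96 in sham, 1.86-fold higher (1.46 to 2.38), and Timp1, an inhibitor of matrix proteases, at 17.1 in TAC and 11.1 in sham, 1.55-fold (1.29 to 1.86). The Timp1 region is shared with Araf and Syn1. Thbs2 was the 1 member below 0 as deposited, 1.46-fold lower (1.32 to 1.62). The 24 collagen genes had a median of 0.06, with 1 higher and 3 lower. Col12a1, a fibril-associated collagen, was 1.64-fold higher (1.36 to 2.00), at 12.8 in TAC and 7.79 in sham. Col5a2 was 2.15-fold lower (1.14 to 4.12) at a short region within the gene, Col6a5 1.85-fold lower (1.47 to 2.35) and Col6a6 1.60-fold lower (1.27 to 2.01). The 12 small leucine-rich proteoglycans, which bind and space collagen fibrils, had 0.09, with none higher and 4 lower. Ogn (osteoglycin) was 1.87-fold lower (1.60 to 2.20), Dcn (decorin) had 7.83 in TAC and 13.2 in sham, and Aspn and Omd share 1 region at 6.97 in TAC and 12.0 in sham. Ogn, Aspn and Omd lie next to each other on chromosome 13, so the 4 are not separate observations. The matched medians of matricellular genes, collagens and proteoglycans were 0.10, -0.10 and -0.06. By peak signal these matched medians were -0.02, -0.09 and -0.27. Without BCAA the medians were -0.13 for matricellular genes, -0.42 for collagens and -0.36 for the proteoglycans.

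Cytokine and signalling lists had median log2 ratios from 0.17 to 0.23, against 0.26 over all genes. By the matched value 24 of the 32 chemokine and receptor genes lay above regions of their own kind, against 50.7% of all genes. The matched median of that list was 0.07, and -0.03 by peak signal. The 32 chemokine and receptor genes had a median of 0.23 with 2 higher and none lower: Ccl4 at 6.48 in TAC and 3.50 in sham, 1.85-fold (1.23 to 2.86), and Cxcl5, in a region shared with Ppbp and Pf4, 1.62-fold (1.34 to 1.96). The 28 interferon response genes had 0.23 and 3 higher, against 4.43% of all genes. By the matched value 10 of the 28 lay above regions of their own kind, with a median of -0.02, and 1 was past 1.5-fold. The 3 higher genes were of the oligoadenylate synthetase family that senses double-stranded RNA. Oas1a had 9.89 in TAC and 4.19 in sham, 2.36-fold (1.44 to 4.16), Oasl1 was 1.65-fold (1.33 to 2.03) and Oas2 1.59-fold (1.35 to 1.88). Without BCAA the Oas1a region had 4.30 in TAC and 6.08 in sham. The 30 TGF-beta and Smad genes had 0.21, and Inhbb, which encodes an activin subunit, was 1.76-fold higher (1.58 to 1.97), at 25.3 in TAC and 14.4 in sham. The 37 hypertrophic signalling genes had 0.17, with the endothelin receptor Ednrb at 1.60-fold (1.43 to 1.78).

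Metabolic lists had medians between 0.12 and 0.34, with few genes past 1.5-fold. BCAA catabolism, with 27 genes, had a median of 0.12, and 7 of the 27 lay above regions of their own kind by the matched value. Dld, a dehydrogenase subunit shared with the pyruvate complex, was the 1 gene past 1.5-fold, at 27.0 in TAC and 17.6 in sham. The 12 genes that make or use propionyl-CoA had 0.34, but a median matched value of 0.0043 with 6 of 12 above regions of their own kind, and -0.19 by peak signal. In this list 1 gene was past 1.5-fold higher. It was Mmab, of the cobalamin pathway, at 17.6 in TAC and 10.5 in sham, 1.68-fold (1.37 to 2.06), in a region shared with Mvk. Acss3, a mitochondrial ligase for short-chain acids, had 7.71 in TAC and 12.0 in sham, a log2 ratio of -0.58. The 32 genes of fatty acid uptake and oxidation had 0.21 with none past 1.5-fold, and the lowest was the fatty acid transporter Cd36, at 12.8 in TAC and 17.0 in sham, 1.33-fold lower (1.26 to 1.41). At Cd36 the BCAA-free pair had 22.3 in TAC and 15.9 in sham. Glycolysis had 0.26 over 28 genes with Pgm1 past 1.5-fold, the pyruvate and TCA cycle list 0.21 over 30, the respiratory chain 0.26 over 48 and cytosolic ribosomal proteins 0.29 over 49. Among 31 histone acylation enzymes and readers the median was 0.28, and the 2 genes past 1.5-fold were the deacetylase Hdac8, at 10.5 in TAC and 5.52 in sham, and Sirt5, which removes acidic acyl groups, at 27.2 in TAC and 16.3 in sham.

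The remaining lists had medians between 0.17 and 0.30. The amino acid starvation response had 0.28 over 25 genes, with the amino acid transporters Slc7a11 and Slc7a5 at 1.77-fold (1.21 to 2.59) and 1.61-fold (1.48 to 1.75). Heat shock genes had 0.28 over 27 with Hsf1 past 1.5-fold, the circadian clock 0.30 over 19 with Per3, and laminins and integrins 0.23 over 28, lysyl oxidases 0.24 over 5, autophagy and muscle proteolysis 0.17 over 27, the glucocorticoid and fasting response 0.17 over 17 and calcium reuptake 0.18 over 10 with none.

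**Figure D5:**
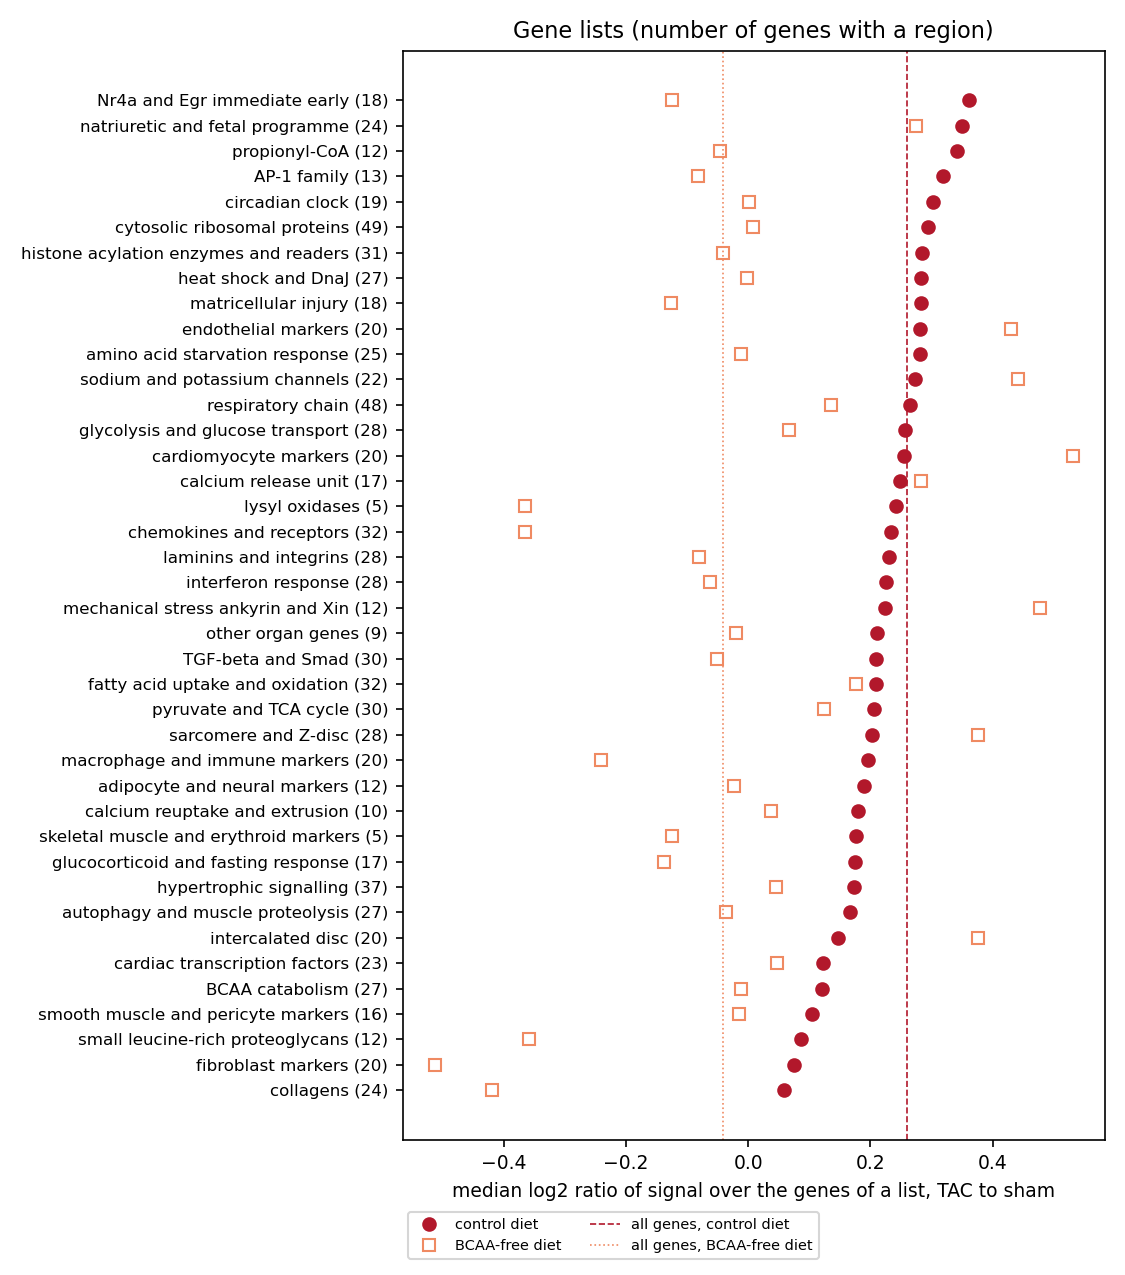
Median log2 ratio of average signal, TAC to sham, over the genes of each of 40 lists, for the control diet as circles and the BCAA-free diet as squares, with vertical lines at the medians of all genes. On the control diet the medians run from 0.06 for collagens to 0.36 for the Nr4a and Egr list, and on the BCAA-free diet from -0.51 for fibroblast markers to 0.53 for cardiomyocyte markers.

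Within each class, the genes with the largest matched values were taken from regions of at least median mean signal whose peak signal gave the same sign. The mean is of the TAC and sham libraries, with a median of 9.65, so a region weak in 1 of them could pass through the other. Peak signal comes from the same reads, so it is no separate check. At CpG-island promoters the highest was Gm8108, a predicted gene on chromosome 14, at 17.2 in TAC and 4.60 in sham, 3.74-fold (2.24 to 6.26), with about 20.5 tags in sham. Cxx1b followed at 2.72-fold (1.84 to 4.06), then Edil3, a secreted integrin ligand, at 17.97 in TAC and 7.22 in sham, 2.49-fold (1.68 to 3.67). The others were the neutral amino acid transporter Slc6a17, 4930452B06Rik and the adenylate cyclase gene Adcy2, at 2.38-fold, 2.01-fold and 2.22-fold. All 6 were called in TAC and not in sham. Their sham signals, 4.60 to 7.22, lay below the median mean signal, so they passed that filter through the TAC library. The 6 lowest were Fam150b, Hpgd, Zik1, Plxdc2, Gpsm2 and Gm15958, between 1.26-fold and 1.44-fold lower, and the interval of Zik1 (0.89 to 1.95) included no difference. Hpgd, Zik1 and Plxdc2 had TAC signals of 8.92 to 9.42, below the median mean signal, and passed through the sham library. Hpgd encodes the enzyme that inactivates prostaglandins, and had 9.42 in TAC and 12.97 in sham.

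The Gm8108 promoter is shown as the one with the largest matched value of its class, with its motif match in capitals. It is the more upstream of 2 starts in RefSeq.
Gm8108, chr14:4110102-4110401, plus strand: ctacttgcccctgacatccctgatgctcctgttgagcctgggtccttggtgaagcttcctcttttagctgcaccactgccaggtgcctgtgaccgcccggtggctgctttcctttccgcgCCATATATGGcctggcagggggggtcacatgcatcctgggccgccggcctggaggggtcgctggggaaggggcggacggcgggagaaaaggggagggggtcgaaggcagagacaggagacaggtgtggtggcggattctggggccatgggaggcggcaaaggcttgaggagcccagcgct
It held a CArG box 130 bases before the start. No promoter of another gene in the table lay within 15 edits of it or of any of the 5 marker promoters.

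At promoters without a CpG island the highest were 2410088K16Rik at 2.25-fold (1.57 to 3.24), 5730409K12Rik at 1.99-fold (1.75 to 2.27), Lcn5, Slfnl1, Gm20212 and Mroh5. Their sham signals, 6.40 to 8.64, also lay below the median mean signal, so they passed that filter through the TAC library. The lowest were Hnmt, the histamine-degrading methyltransferase, at 9.06 in TAC and 15.5 in sham, 1.71-fold lower, then Pp2d1, 9430041J12Rik, Acss3, Dcn and Ecm2. Of these, Hnmt, 9430041J12Rik, Acss3 and Dcn had TAC signals below the median mean signal, 7.71 to 9.06, and passed through the sham library. Ecm2, a matrix protein gene beside Omd and Aspn on chromosome 13, had 10.03 in TAC and 15.8 in sham, 1.57-fold lower (1.41 to 1.76). Among regions without a promoter the highest was in Habp2, a serine protease gene, at 29.5 in TAC and 9.83 in sham, followed by Dbh, the enzyme of noradrenaline synthesis, at 13.1 in TAC and 6.36 in sham, 2.05-fold (1.80 to 2.34). The others were in Piezo2, a mechanically gated channel, at 2.38-fold (1.66 to 3.45), in Rps6ka1, a kinase downstream of ERK, at 2.21-fold (1.86 to 2.63), in the metalloprotease gene Adamts16 and downstream of Mgat3. The regions of Dbh, Piezo2, Adamts16 and Mgat3 had sham signals of 6.33 to 8.38 and passed the filter through the TAC library. The lowest were Gpr141, Slc6a5, Armc3, Gm5454, Pik3c2g and Asic2, between 1.52-fold and 1.76-fold lower. All but Slc6a5 had TAC signals below the median mean signal, 7.44 to 9.60, and passed through the sham library. Of the 18 higher genes named by class, 13 were also above 0 in the BCAA-free pair, where 42% of all genes were, and of the 18 lower genes 16 were also below 0, where 57.9% of all genes were. Many of these genes passed the signal filter through 1 library, so the counts are a description.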

How the data were processed

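H3K23Pr was measured by ChIP-seq in whole mouse hearts, with chromatin work by Active Motif per the labels' protocols. The submitters' processing notes name BWA, MACS2 and the build mm10, and give no version or role for them. The authors deposited 1 table of merged regions, which holds per region and library an average and a peak signal (coverage), a flag for a call, and annotation. How signal was scaled between libraries is not given in the sources used here. The deposited maximum tag score equals the larger average signal times the region length divided by 224, and the same formula gave the approximate tags of each library. If the authors scaled the tags, counting intervals change with that factor. The deposited log2 ratios, plain ratios without a pseudocount, were used only as a check. No input was subtracted here.

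From these values log2((TAC + 1)/(sham + 1)) was computed per region. Centred values subtract the median over all regions. Matched values subtract the median of regions of the same class, bin of mean signal (5 bins) and bin of length (3 bins), and strata under 50 regions fall back to class and signal. A region counted as higher or lower at 1.5-fold on this scale. Intervals of plain folds are exact Clopper-Pearson 95% intervals and cover counting error only. With 1 pooled library per group there is no test. Genes named are the 5 markers, the 6 highest and 6 lowest matched values per class, and up to 4 members of each list with the largest and smallest ratios. Where more than that passed 1.5-fold, the members were named after their values were seen. The members and lists were chosen with earlier results of these data known. Of the list symbols, 9 were matched through another symbol in the RefSeq table. Promoters are from RefSeq GRCm38.p6. Some genes of the lists are not reported here. The procedure was tested on simulated data. Python 3.11.15, numpy 2.4.6, pandas 2.3.3 and scipy 1.17.1 were used. Alternatives were other pseudocounts, thresholds, filters, scalings, signal measures, bins and ways to represent a gene.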

Additional observations from a re-analysis of the deposited data

Results flagged for a closer look

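For 5 lists the median log2 ratio of TAC to sham had opposite signs on the control diet and on the BCAA-free diet, each at least 0.1 in size over at least 10 genes. The medians of the Nr4a and Egr immediate early list were 0.36 on the control diet and -0.12 on the BCAA-free diet, a difference (BCAA-free minus control) of -0.486. For the matricellular list they were 0.28 and -0.13, a difference of -0.409. Chemokines and their receptors had 0.23 and -0.36, a difference of -0.599. The glucocorticoid and fasting response had 0.17 and -0.14, a difference of -0.312. Macrophage and immune markers had 0.20 and -0.24, a difference of -0.437. The medians of all genes also had opposite signs, 0.26 and -0.04. The difference between the diets was not tested in any of them, since each diet and operation has 1 library.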

How the results depend on the processing

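Counts of regions past the threshold, 1781 higher and 678 lower as reported, depended on several choices. They were 477 and 72 with a pseudocount of 5, 5446 and 1150 by peak signal, 199 and 46 at 2-fold, 8259 and 2629 at the lower planned threshold, and 723 and 36 among regions at or above the median signal. Centring gave 741 and 1544, equal sums 830 and 1426, and removing the trend on mean signal 1180 higher. The median difference between CpG-island promoters and regions with neither feature, 0.23 as reported, was 0.24 with a pseudocount of 0.1, 0.19 with a pseudocount of 5, 0.27 by peak signal, 0.15 among regions at or above the median signal, 0.21 among regions called in either library and 0.059 with the trend removed. It was above 0 in all of these. Of the matched medians of lists, 272 stayed within their tolerance and 8 did not, all 8 by peak signal. The markers kept a positive log2 ratio under all alternatives, and the Nppb ratio was 0.65 by peak signal. Centred and equal-sum marker values were added after seeing the data. No replicate could be left out. No paired analysis was possible because each group has 1 library and the result comes from no test. The sham values of the markers rest on few tags, about 43.2 at Tnc, 59.6 at Nppb, 73.4 at the Nppa start and 79.1 at Acta1.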
